A study of Mus musculus with 12 samples.

Results

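The genes described here encode the machinery that carries a signal from a G protein-coupled receptor through cyclic nucleotides, calcium and lipids to protein kinases. They were chosen by symbol: G protein alpha, beta and gamma subunits, regulators of G protein signalling (RGS), adenylyl cyclases, cyclic nucleotide phosphodiesterases, catalytic and regulatory subunits of protein kinase A (PKA), A kinase anchor proteins (AKAP), protein kinase C (PKC) and phospholipases C of the beta, delta, epsilon and gamma classes. The rule found 100 of the 11356 genes named in the peak annotation, and they carried 5054 of 250567 peaks. Of the 100, 10 matched by name alone and were set outside these families: Adcyap1, Adcyap1r1, Pde4dip, Gnb1l, Prkcdbp, Pde12, Pde6d, the pseudogenes Gng2-ps1 and Prkaca-ps1, and Prkcz2, whose 2 peaks were also annotated as a processed pseudogene. Rgs7bp is counted with RGS by its symbol, though it encodes an anchor of RGS proteins.

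A receptor bound by its transmitter makes the G alpha subunit exchange GDP for GTP and part from G beta and G gamma, and RGS proteins speed the return to the resting state. Alpha subunits of different classes stimulate or inhibit adenylyl cyclase, which makes cyclic AMP, or activate phospholipase C beta, which makes the messengers that release calcium and activate PKC. Cyclic AMP frees the catalytic subunits of PKA from its regulatory subunits, anchor proteins hold PKA near its substrates, and phosphodiesterases end the signal. In forebrain neurons these steps set excitability and synaptic plasticity. A microRNA loaded in Argonaute 2 (Ago2) pairs with target RNA mainly through its seed, the bases from position 2 to 8, and lowers the output of that RNA.

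The assay cross-linked Ago to RNA with ultraviolet light in forebrain homogenate of C57BL/6 mice and ligated each small RNA to its target, so that a chimeric read names both partners. Antibody to Ago2 (2D4) was used for 7 whole-forebrain libraries, antibody to the myc tag for 3 libraries of excitatory neurons, and IgG1 for 2 control libraries. The labels describe a cross of Camk2a-CreERT2 mice, in which a tamoxifen-dependent Cre is driven in excitatory neurons, with a ROSA26 line carrying GFP-tagged Eif2c2 (Ago2). Tamoxifen was injected intraperitoneally at 2 mg per day for 5 days, and tissue was taken 14 to 21 days after the last dose at 10 to 12 weeks of age. All samples carry these treatment words, and it is not given in the sources used here whether mice used for anti-Ago2 and IgG had the tag too.

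The authors called peaks over pooled libraries and deposited 4 lists, on mm10: forebrain replicates 1 to 4 (reps 1-4, 4 libraries), forebrain replicates 5 to 7 (reps 5-7, 3 libraries), excitatory neurons (3 libraries) and IgG (2 libraries). Each list is 1 pooled observation, so no value below has a spread between replicates, and intervals are Wilson 95% intervals that cover counting error only. The lists differed widely in size, with 246180, 3611, 766 and 10 peaks, and rRNA took 2.06%, 19.9% and 11.6% of the first 3. The calling summaries give reps 5-7 and excitatory neurons 3 library numbers in common, and the sources used here do not say what these numbers mean. The excitatory list held 14 peaks on Camk2a and 0 on the excitatory markers Slc17a7 and Neurod6, and 0 on 3 inhibitory, 5 astrocyte, 4 microglial and 3 vascular markers. The reps 5-7 list held 24 peaks on Camk2a and 1 on Slc17a7, 4 on the inhibitory markers and 35 on the astrocyte ones. A peak number follows both the abundance of an RNA and its binding, and neither was measured apart.

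Mature sequences of several small RNAs are shown because the results below turn on them. Of the 175 small RNA names on these genes in reps 1-4, 146 matched a mature sequence in RefSeq (GRCm38.p6), with 117 different seeds. miR-124-3p, the name with the most peaks, was not among the 146. Its sequence and seed are therefore missing here and from every seed count below. Capitals mark the seed. miR-9-5p, miR-128-3p, miR-137-3p and miR-138-5p each had a seed that no other name on these genes shared:
miR-9-5p: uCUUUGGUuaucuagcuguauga
miR-128-3p: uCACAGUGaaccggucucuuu
miR-137-3p: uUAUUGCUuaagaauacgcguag
miR-138-5p: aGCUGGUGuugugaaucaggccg
The miR-26 pair shared 1 seed and held 375 peaks on these genes in reps 1-4:
miR-26a-5p: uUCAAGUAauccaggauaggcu
miR-26b-5p: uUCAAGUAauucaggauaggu
The miR-29 names shared another seed and held 382 peaks:
miR-29a-3p: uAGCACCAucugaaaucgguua
miR-29b-3p: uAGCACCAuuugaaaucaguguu
miR-29c-3p: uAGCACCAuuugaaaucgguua
The miR-125 pair held 233 peaks:
miR-125b-5p: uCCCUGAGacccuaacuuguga
miR-125a-5p: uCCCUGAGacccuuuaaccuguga
The let-7 seed was shared by 9 names, miR-98-5p included, with 383 peaks together, and 4 of them are shown:
let-7a-5p: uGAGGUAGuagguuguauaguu
let-7c-5p: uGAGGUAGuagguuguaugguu
let-7f-5p: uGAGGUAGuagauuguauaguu
let-7i-5p: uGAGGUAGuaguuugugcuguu
Names of 1 seed group differ by few bases, and how the authors assigned a read among near-identical names is not given in the sources used here.

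Signalling genes took 4984 peaks in reps 1-4, 2.02% of that list (interval 1.97 to 2.08%). They took 59 peaks in reps 5-7, 1.63% (1.27 to 2.10%), and 11 in excitatory neurons, 1.44% (0.804 to 2.55%). The IgG list held 0 of 10, which allows a share of up to 30%. No peak of these genes in any list overlapped an IgG peak, which adds little, since none of the 10 lay on these genes. The differences from reps 1-4 were -0.391 percentage points for reps 5-7 (Newcombe interval -0.760 to 0.0804) and -0.589 for excitatory neurons (-1.22 to 0.530), so neither interval left out 0. Among peaks in coding sequence (CDS) and untranslated regions (UTRs) alone, the shares were 1.80%, 2.31% and 1.72%. There the difference of reps 5-7 from reps 1-4 turned to 0.508 percentage points (-0.0286 to 1.20), again with 0 inside its interval.

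In reps 1-4 the peaks were spread unevenly over the genes. The median gene of the 100 had 16.5 peaks, against 5.00 over all genes in the list. Of the 100 genes, 14 had more than 100 peaks and together held 64.4% of the peaks, while 40 had fewer than 10. The largest numbers were 574 on Plcb1 (phospholipase C beta), 334 on Pde4b and 330 on Pde10a (phosphodiesterases), 323 on Prkce and 219 on Prkcb (PKC isoforms), 215 on Gnao1 (the G alpha subunit o), 209 on Rgs7, 200 on Adcy1 (a calcium-stimulated adenylyl cyclase), 199 on Pde4d and 150 on Akap6.

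Most of these peaks lay in introns. Of the peaks on the signalling genes in reps 1-4, 62.4% were annotated as intron (61.0 to 63.7%), 18.0% as CDS (17.0 to 19.1%) and 18.6% as 3' UTR (17.5 to 19.7%). The peaks on all other genes were 50.1% intron, 24.1% CDS and 19.8% 3' UTR. Within classes of genes with a like number of peaks the shares lay closer together. Genes above 100 peaks had 79.3% in introns on the 14 signalling genes (77.8 to 80.6%) and 78.2% on other genes, and genes with 100 peaks or fewer had 31.8% (29.7 to 34.0%) and 28.6%, with rRNA left out of the other genes. Intron peaks are part of the number that sets these classes. Among CDS and UTR peaks alone, 49.4% lay in the 3' UTR (47.2 to 51.7%), against 44.1% on other genes. That value rested on Adcy1, and without it was 45.5% (43.1 to 47.9%). Over the 72 genes with an intron peak, the number of intron peaks followed gene length with a Spearman rank correlation of 0.697. Over all 100 genes, those without a CDS or UTR peak included, the correlation between length and the number of CDS and UTR peaks was 0.224. Both are across genes, which share libraries and depth.

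Intron peaks were also weak. Each deposited peak has a score from the authors, a whole number, 3 at the lowest, with no definition in the sources used here. The median score was 3.00 for the 3108 intron peaks of the signalling genes and 5.00 for their 1871 CDS and UTR peaks. Scores of 20 or more were reached by 26 of the intron peaks (0.837%) and by 180 of the CDS and UTR peaks (9.62%). Other genes gave 0.790% and 7.66%.

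**Figure D1:**
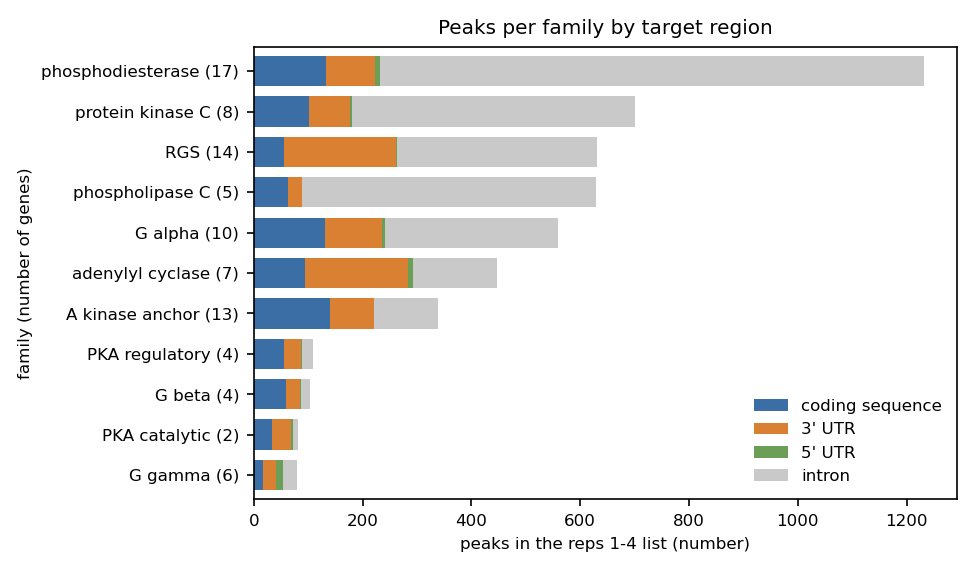
Peaks in the reps 1-4 list (x axis, number) for each family (y axis, with its number of genes), split by annotated target region. Phosphodiesterases, PKC and phospholipase C were mostly grey, with 81.2%, 74.2% and 85.9% of their peaks in introns, while G beta and both kinds of PKA subunit had under 20% there.

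The families separated by where their peaks lay, as the plot of peaks per family shows. Intron shares were 85.9% for phospholipase C, 81.2% for phosphodiesterases, 74.2% for PKC, 58.3% for RGS, 56.9% for G alpha, 34.9% for AKAP, 34.7% for adenylyl cyclases, 32.5% for G gamma, 18.5% for PKA regulatory subunits, 17.3% for G beta and 11.1% for PKA catalytic subunits. Some of these rested on a single gene. The share was 40% for phospholipase C without Plcb1, 38.2% for RGS without Rgs7 and 16.5% for AKAP without Akap6. It was 6.06% for G beta without Gnb1, and higher for adenylyl cyclases without Adcy1 (60.3%) and PKA catalytic subunits without Prkacb (21.1%). Within CDS and UTRs, RGS genes stood out by their 3' UTRs, with 205 of 263 peaks (77.9%, 72.6 to 82.5%), and 78.2% without Rgs7bp, the member with the most such peaks. Adenylyl cyclases had 64.7% there, but 27.6% (19.7 to 37.1%) without Adcy1. More CDS than 3' UTR peaks were found for AKAP, PKA regulatory subunits, G beta, phospholipase C, phosphodiesterases, PKC and G alpha. Their 3' UTR shares ran from 28.1% (phospholipase C) to 43.2% (G alpha). The order turned without 1 gene for PKC (53.6% without Prkcb) and G alpha (52.0% without Gnas). Phosphodiesterases without Pde2a had 86 CDS and 85 3' UTR peaks. In the other families named, more CDS peaks remained without the gene with the most CDS and UTR peaks.

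The 10 G alpha genes held 559 peaks in reps 1-4, 11 in reps 5-7 and 1 in the excitatory list. Gnao1, the most abundant alpha subunit of brain membranes, had 164 of its 215 peaks in introns, 37 in CDS and 11 in the 3' UTR. All 5 of its reps 5-7 peaks lay in CDS, and 3 of them were let-7 names (let-7f-5p, let-7a-5p, let-7d-5p) within the same short stretch, where reps 1-4 held a site of 11 small RNAs (chr8:93963436-93963537). Gnas, which encodes the stimulatory alpha subunit from a locus of overlapping transcripts, had 51 of its 76 peaks in CDS. Its highest score was 93, for miR-128-3p in CDS (chr2:174343277-174343285), and this peak scored 5 in reps 5-7. Gnas also had a CDS place bound by the miR-29 names in both forebrain lists: miR-29a-3p scored 44 and 4, and miR-29c-3p 17 and 4. Gna12, another alpha subunit, had only 24 peaks but was found in all 3 lists. Its miR-124-3p peak (chr5:140759752-140759757) scored 75, 4 and 4 in reps 1-4, reps 5-7 and excitatory neurons. The authors annotated it as 3' UTR, and it lay beyond the end of the RefSeq gene, which took in 13 of the 24 Gna12 peaks. Gnai3, an inhibitory alpha subunit, had 14 peaks and a miR-124-3p 3' UTR peak that scored 32 in reps 1-4 and 3 in reps 5-7.

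Among the G beta genes, Gnb1 had 71 peaks and Gnb2 had 18. All 18 Gnb2 peaks lay in CDS, and 6 of them were miR-124-3p. The strongest (chr5:137528786-137528787) scored 227, 10 and 3 in the 3 lists, and the next small RNA on the same bases scored 3. The highest Gnb1 score was 44 (miR-124-3p, CDS), and this peak scored 3 in reps 5-7. The 6 G gamma genes had 80 peaks together and 0 in reps 5-7. Gng3, a neuronal gamma subunit, had 16 peaks in reps 1-4. Its miR-128-3p peak in CDS (chr19:8838231-8838242) scored 33 there and 5 in excitatory neurons, and no Gng3 peak was listed in reps 5-7.

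The 14 genes counted as RGS, Rgs7bp included, held 631 peaks, and they divided sharply by region. Without Rgs7bp they held 526 peaks, 62.5% of them in introns. Rgs7 had 207 of its 209 peaks in introns and a highest score of 35. Rgs4, an RGS protein of cortical neurons, had 0 intron peaks, 51 in the 3' UTR and 7 in CDS. Its miR-26a-5p peak in the 3' UTR (chr1:169742222-169742232) scored 256, 14 and 7 in the 3 lists, and miR-26b-5p on the same bases scored 5. The next names on Rgs4 were miR-9-5p with a highest score of 47 and miR-124-3p with 39. Rgs7bp, which anchors RGS proteins of the R7 class to the membrane, had 51 peaks in the 3' UTR, 39 in introns and 14 in CDS. Its strongest was a CDS peak of miR-125b-5p (chr13:104964111-104964125) with a score of 222 in reps 1-4 and 4 in reps 5-7, and miR-125a-5p, of the same seed, scored 56 there. Rgs2 had 16 of 19 peaks in the 3' UTR, 13 of them stacked on 93 bases (chr1:144001048-144001140). The leading name of that stack was miR-128-3p, with 58 in reps 1-4 and 5 in reps 5-7.

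Among the 7 adenylyl cyclase genes, Adcy1 alone held 200 of 447 peaks and 162 of the 189 in 3' UTRs. The annotated Adcy1 3' UTR is 8790 bases long (chr11:7169717-7178506), and its 162 peaks carried 62 small RNAs, merged into 49 sites and covered 24% of its bases. The peaks fell into 2 stretches. Bases 3000 to 4000 from the start of the 3' UTR held 66 peaks of 35 small RNAs, and bases from 7700 to the end held 70 peaks of 37. Together these held 84.0% of the peaks, and the first 1000 bases held 2. These bounds were chosen after the positions were seen. The highest score was 213, for miR-137-3p (chr11:7173315-7173329), which scored 5 in reps 5-7, and no other name overlapping it scored above 9. miR-124-3p had 30 peaks along the 3' UTR, with scores of 84, 81 and 63 at the highest, and miR-9-5p reached 65. All 6 reps 5-7 peaks of Adcy1 lay in this 3' UTR and in the same 2 stretches, and 5 of the 6 lay on a reps 1-4 peak that named the same small RNA. The excitatory list held no Adcy1 peak. Adcy5, the cyclase of striatal neurons, had 76 peaks. Its highest score was 161 for miR-124-3p in the 5' UTR (chr16:35155902-35155915), which was not found in the other lists, and its reps 5-7 peak was a CDS peak of miR-124-3p with a score of 3 (25 in reps 1-4).

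**Figure D2:**
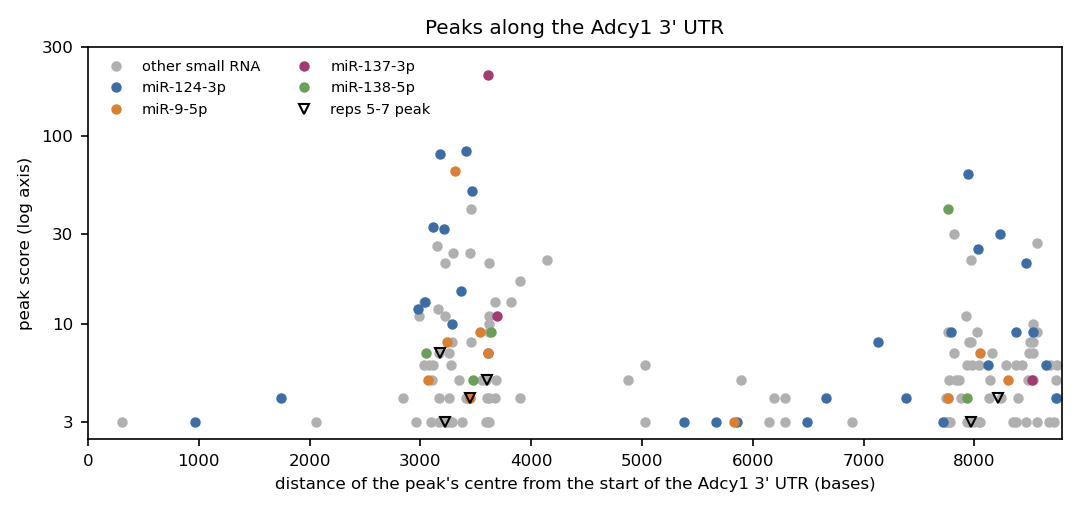
Score (y axis, log axis) and position (x axis, bases from the start of the 3' UTR) of each peak on the Adcy1 3' UTR. Filled points are the 162 peaks of reps 1-4, coloured by small RNA, and open triangles are the 6 peaks of reps 5-7. The peaks gather between 3000 and 4000 bases and beyond 7700, and the miR-137-3p peak with a score of 213 stands highest.

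Phosphodiesterases were the family with the most peaks, 1231 over 17 genes, and 1000 of them lay in introns. Pde4b (319 of 334 in introns), Pde4d (189 of 199) and Pde10a (286 of 330) made up most of these. Pde10a, the cyclic AMP and cyclic GMP phosphodiesterase of striatal projection neurons, also held the highest scores of all the signalling genes. Its miR-26a-5p peak in the 5' UTR (chr17:8946828-8946840) scored 309, and a second miR-26a-5p peak (chr17:8949352-8949360) scored 287. miR-26b-5p scored 22 and 20 on the same bases. Both peaks were also in reps 5-7, with scores of 6 and 6, and neither was in the excitatory list. The second was annotated as CDS in reps 1-4 and as intron in reps 5-7. A further Pde10a peak, of miR-124-3p in CDS (chr17:8962916-8962928), was in all 3 lists, with scores of 44, 3 and 3. Pde4b had no peak in reps 5-7 and 1 in excitatory neurons, an intron peak of miR-124-3p (chr4:102413915-102413931) with scores of 21 and 3 in reps 1-4 and excitatory neurons.

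The other 14 phosphodiesterase genes had 206 of 368 peaks in introns (56%), and they differed among themselves: 95 of the 108 Pde1a peaks were intronic, while Pde2a and Pde1b had most of theirs in CDS. Pde2a, stimulated by cyclic GMP, had 47 of 68 peaks in CDS, and a miR-124-3p peak in its 3' UTR (chr7:101512705-101512710) that scored 124 was not found in the other lists. Its 2 reps 5-7 peaks were let-7c-5p, with 17 and 3 in reps 1-4 and reps 5-7, and miR-103-3p, which overlapped no reps 1-4 peak. Pde1b, a calcium and calmodulin dependent enzyme, had 26 of 40 peaks in CDS and a miR-124-3p peak there with scores of 62 and 5 in the 2 forebrain lists.

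PKA genes had few peaks but several of the strongest. Prkaca, a catalytic subunit, had 19, 3 and 1 peaks in reps 1-4, reps 5-7 and the excitatory list. Its miR-26a-5p peak in CDS (chr8:83986910-83986922) scored 241, 15 and 7 in the 3 lists, the joint highest on these genes in reps 5-7 and in excitatory neurons. A second miR-26a-5p peak on Prkaca, 1 base long and annotated as intron (chr8:83988283-83988283), scored 168 in reps 1-4 and 4 in reps 5-7. The processed pseudogene Prkaca-ps1 also carried a miR-26a-5p peak, with a score of 7 in reps 1-4, and how the authors placed reads shared by a gene and its near-identical copy is not given in the sources used here. Prkacb, the other catalytic subunit, had 62 peaks. Its miR-9-5p peak in CDS (chr3:146732693-146732699) scored 138 in reps 1-4 and 3 in excitatory neurons and was not in reps 5-7, where another miR-9-5p CDS peak (43 in reps 1-4) scored 4. Prkar1a, a regulatory subunit, had 55 peaks. Its strongest were miR-29a-3p in CDS (chr11:109660107-109660121) at 165 and miR-26a-5p in the 3' UTR (chr11:109668648-109668654) at 140, which scored 7 in reps 5-7. On the CDS place, miR-29b-3p scored 74 and miR-29c-3p 51, and no peak was listed there in reps 5-7.

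The 13 anchor protein genes held 338 peaks, with 140 in CDS. Akap11, which binds PKA and glycogen synthase kinase 3, had 63 of 87 peaks in CDS and 1 in an intron. Its miR-9-5p peak in CDS (chr14:78512886-78512896) scored 226, 15 and 5 in the 3 lists. Akap11 was the only signalling gene with 2 excitatory peaks, and the second, of miR-128-3p in CDS with a score of 3, overlapped no reps 1-4 peak. Akap6, which anchors PKA at the nuclear envelope, had 150 peaks in reps 1-4, 87 of them in introns, with a highest score of 36 and no peak in the other lists. Akap9, a large scaffold of the Golgi and centrosome, had 18 peaks and a miR-124-3p CDS peak with scores of 5 and 3 in the forebrain lists.

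The 8 PKC genes held 701 peaks and the 5 phospholipase C genes 629. Prkcb had 150 intron and 54 CDS peaks. A stretch of its CDS (chr7:122544704-122544760) carried miR-128-3p at 130, miR-29a-3p at 86, miR-29b-3p at 67 and miR-29c-3p at 46, and in reps 5-7 miR-128-3p scored 4 and miR-29a-3p 6. Prkce had 269 of 323 peaks in introns and 1 peak in reps 5-7, of miR-124-3p in CDS (chr17:86488276-86488291), with scores of 105 and 12. Plcb1, which G alpha q activates, had 518 of 574 peaks in introns, among them the strongest intron peak of these genes, miR-124-3p (chr2:135027324-135027346) at 180, which was in no other list. Its other strong peaks were of let-7 names at 2 places. On 32 bases of CDS (chr2:135294964-135294995), all 9 names with the let-7 seed were listed, led by let-7c-5p at 74, let-7f-5p at 66, let-7a-5p at 65 and let-7i-5p at 64, down to miR-98-5p at 8. On 73 bases annotated as CDS and intron (chr2:135310921-135310993), the same 9 names were listed among 18 small RNAs, led by let-7c-5p at 55 and let-7f-5p at 50. In reps 5-7, 5 of the 7 Plcb1 peaks were let-7 names at these places, with scores of 3 or 4, and the excitatory peak was let-7c-5p at the first, with a score of 4. Plcb4, another G alpha q effector, had 35 peaks and 2 CDS peaks in reps 5-7, of miR-34a-5p and miR-124-3p, both with a score of 3.

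**Figure D3:**
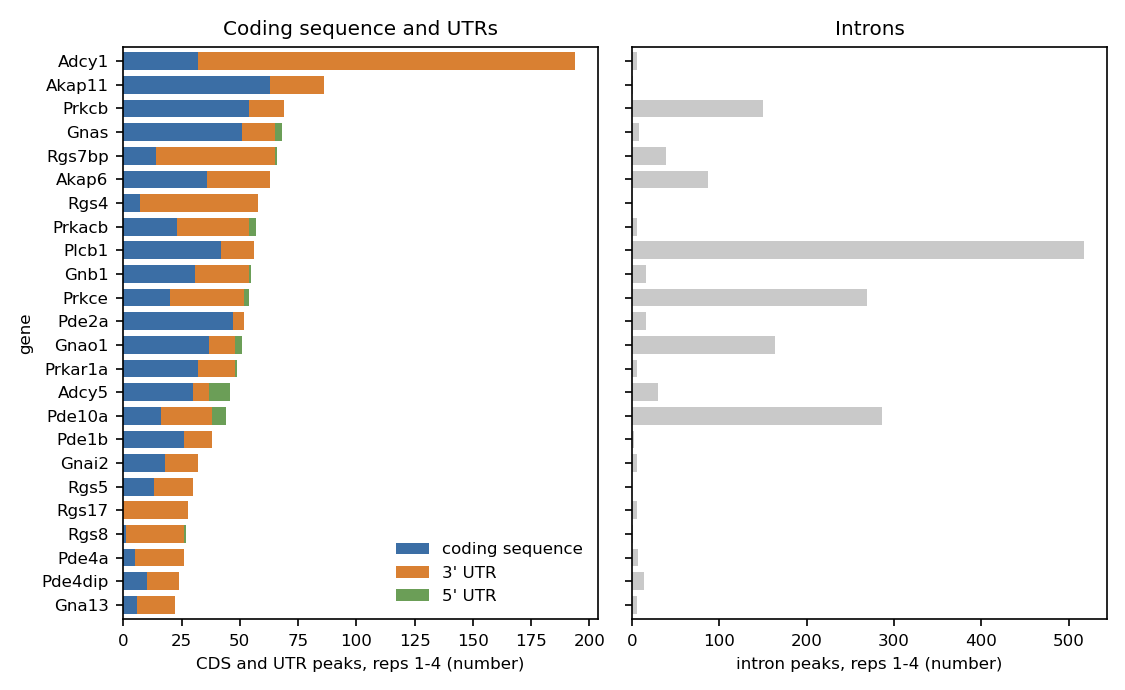
Peaks in reps 1-4 on the 24 signalling genes with the most CDS and UTR peaks. The left panel counts CDS and UTR peaks and the right panel intron peaks (x axes, number), on different scales. Adcy1 led in CDS and UTRs through its 3' UTR and had 6 intron peaks, while Plcb1, with 518 intron peaks, ranked ninth on the left.

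Ranked by CDS and UTR peaks, the order of the genes changed, as the plot of peaks by region shows. Adcy1 came first, followed by Akap11, Prkcb, Gnas, Rgs7bp, Akap6, Rgs4, Prkacb, Plcb1 and Gnb1. Rgs7, Pde4b and Pde4d, which were among the 10 genes with the most peaks in all regions, were not among these 10.

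miR-124-3p, a neuronal microRNA, had the most peaks on the signalling genes in each list, with 1601, 19 and 4 (reps 1-4, reps 5-7, excitatory). In reps 1-4 that was 32.1% (30.8 to 33.4%), against 29.2% (29.1 to 29.4%) of the peaks not on these genes. Within regions the gap was smaller and not of 1 direction: 39.6% of intron peaks (37.9 to 41.3%) against 37.7% on other genes, 18.7% of CDS peaks (16.3 to 21.4%) against 19.7%, and 21.0% of 3' UTR peaks (18.5 to 23.7%) against 22.7%. Next came miR-9-5p with 507 peaks (10.2%), then miR-26a-5p with 362 (7.26%) and miR-128-3p with 298 (5.98%). Below 5% were miR-125b-5p with 213 peaks, and the names miR-29a-3p with 171 and miR-29b-3p with 157. The 10 leading names were completed by let-7c-5p with 93 peaks, the other strand of the miR-9 hairpin, miR-9-3p, with 87, and miR-138-5p with 79. Among these 10, miR-128-3p was the other name whose interval (5.35 to 6.67%) lay above its share off these genes, 5.23%. By region it was above in introns, with 6.69% (5.87 to 7.63%) against 5.58%, but not in CDS (5.12% against 5.38%) or 3' UTRs (4.54% against 4.76%). The interval of let-7c-5p lay just below, with 1.87% (1.53 to 2.28%) against 2.29%. miR-26a-5p took 7.26% of the peaks but 10.3% of their summed score.

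**Figure D4:**
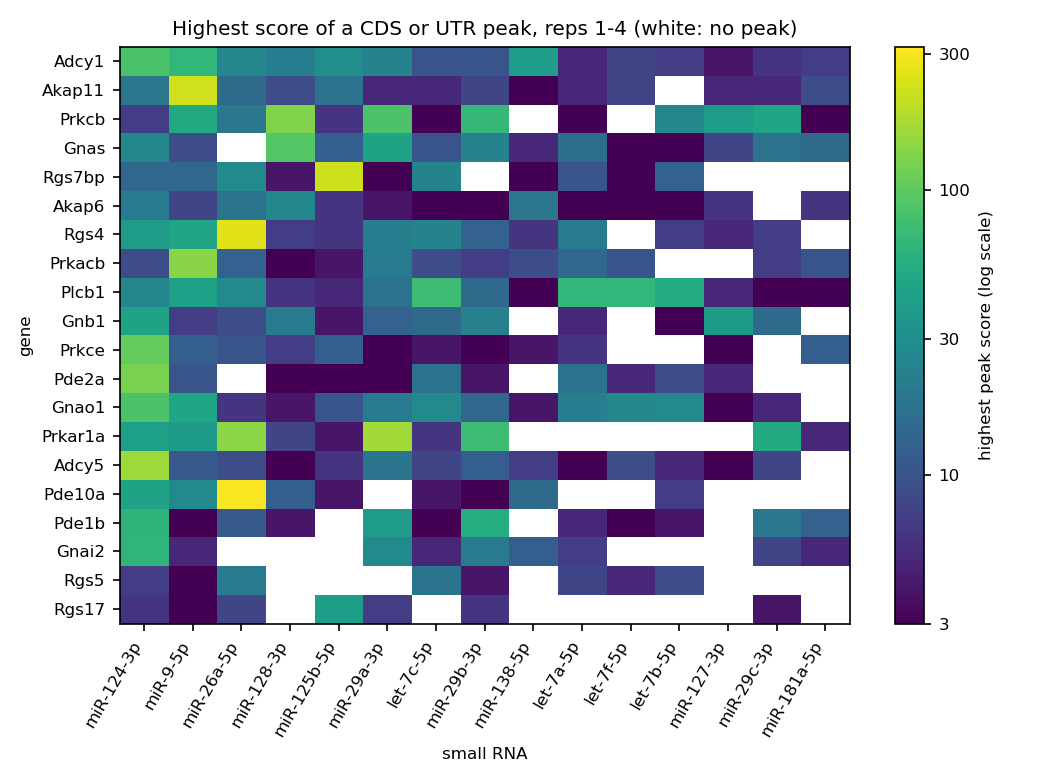
Highest score of a CDS or UTR peak in reps 1-4 (colour, log scale) for the 20 signalling genes with the most such peaks (y axis) and the 15 small RNAs with the most such peaks on all the signalling genes (x axis). White means no peak. Single bright cells stand out, among them miR-26a-5p on Pde10a (309) and Rgs4 (256), miR-9-5p on Akap11 (226) and miR-125b-5p on Rgs7bp (222).

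Pairs of gene and small RNA differed in kind, as the map of highest scores shows. On some genes a single peak carried most of the summed score of a small RNA in CDS and UTRs. miR-9-5p on Akap11 summed to 253 over 8 peaks with 226 in the highest, and miR-26a-5p on Prkaca to 259 over 3 with 241. miR-26a-5p on Pde10a summed to 672 over 5, with 309 and 287 in the highest pair. On others many peaks shared it: miR-124-3p on Adcy1 summed to 700 over 38 peaks with 84 in the highest, and on Gnas to 134 over 13 with 26. Of the 25 peaks with the highest scores, 14 lay in CDS, 7 in 3' UTRs, 2 in 5' UTRs and 2 in introns. They named miR-124-3p 9 times, miR-26a-5p 6 times and miR-9-5p 3 times. All 6 miR-26a-5p peaks were on cyclic AMP genes or Rgs4 (Pde10a, Prkaca, Prkar1a), and at each miR-26b-5p was listed on the same bases with scores from 5 to 22.

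Overlapping peaks of the signalling genes in reps 1-4 merged into 3914 sites. At 519 sites (13.3%) 2 or more small RNAs met, against 14.7% over all sites outside rRNA, and at 66 sites 5 or more met. The largest held 18 small RNAs each: a stretch of 259 bases of the Adcy1 3' UTR (chr11:7173101-7173359), with 14 different seeds among the 16 names that have a RefSeq sequence, and the second Plcb1 place, where 9 of the 16 such names shared the let-7 seed. A further Adcy1 site held 16 small RNAs with 14 seeds (chr11:7177624-7177846). The first Plcb1 place and the Rgs2 site held 13 each, and a Prkar1a site in CDS held 12 (chr11:109660104-109660140). Among its names with a RefSeq sequence, 4 shared 1 seed (miR-30a-5p, miR-30c-5p, miR-30e-5p and miR-384-5p). The higher scores there lay on 3 names of the miR-29 seed. miR-30b-5p and miR-30d-5p were also listed at this site but had no RefSeq sequence. Of the 261 sites with 2 or more small RNAs all of known seed, 132 (50.6%, 44.5 to 56.6%) held names of a common seed. Sites with miR-124-3p, or with another name without a RefSeq sequence, are left out of the 261. The share therefore does not describe all 519 sites.

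Of the 100 signalling genes, 24 had a peak in reps 5-7, where 12.9% of all genes with a reps 1-4 peak did, and 10 had one in excitatory neurons, where 4.04% did. These shares were also set against genes with a like number of CDS and UTR peaks in reps 1-4. With 30 or more such peaks, 16 of 19 signalling genes (84.2%) had a CDS or UTR peak in reps 5-7, against 70.5% of all genes in that class. With 10 to 29 it was 8 of 32 (25%) against 25.8%, and with 1 to 9 it was 0 of 43, which allows a share of up to 6.98%, against 3.18%. In excitatory neurons these shares were 26.3% against 30.6%, 12.5% against 6.80% and 0 of 43 against 0.639%. The excitatory genes were Akap11, Gna12, Gnb2, Gng3, Pde10a, Pde4b, Plcb1, Prkaca, Prkacb and Rgs4. Of these, 8 were also in reps 5-7, all but Gng3 and Pde4b, and 74 of the 100 genes were in reps 1-4 alone.

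The small lists placed their peaks on these genes mainly in CDS. In reps 5-7, 35 of 59 lay in CDS (59.3%, 46.6 to 70.9%), against 41.3% (39.4 to 43.1%) on other genes with rRNA left out, 19 in 3' UTRs and 4 in introns. Leaving out any 1 of the 24 genes gave CDS shares from 55.6% (without Gnao1) to 66.0% (without Adcy1). Counted as merged sites, 29 of 52 lay in CDS (55.8%, 42.3 to 68.4%), against 41.1% (39.1 to 43.0%) of merged sites on other genes. Here rRNA was not left out, and the intervals overlapped slightly. In excitatory neurons 8 of 11 lay in CDS (72.7%, 43.4 to 90.3%), against 55.5% on other genes without rRNA, a value inside that interval. When only the 3611 peaks of reps 1-4 with the highest scores were taken, all with scores of at least 51, it held 50 peaks on 24 signalling genes, 30 of them in CDS, 16 in 3' UTRs and 2 in introns.

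Peaks of the small lists were mostly peaks of reps 1-4. Of the 59 in reps 5-7, 51 (86.4%, 75.5 to 93.0%) shared at least 1 base and the strand with a reps 1-4 peak that named the same small RNA, against 87.5% over all reps 5-7 peaks. With an overlap of at least 10 bases the share was 54.2% against 55.6% over all reps 5-7 peaks, and with a reciprocal overlap of 50% it was 50.8% against 45.3%. Of the 11 in excitatory neurons, 10 did (90.9%, 62.3 to 98.4%), against 93.1%. With at least 10 bases it was 54.5% against 59.7%. The matched peaks were strong ones in reps 1-4, with a median score of 44.0 for reps 5-7 and 106 for excitatory neurons, against 4.00 over all peaks of these genes. Of the 8 reps 5-7 peaks without such a match, 3 overlapped a reps 1-4 peak of another small RNA, and 5 overlapped none: miR-124-3p on Adcy1 and on Plcb1, miR-103-3p on Pde2a, miR-9-5p on Pde4d and miR-34a-5p on Plcb4.

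**Figure D5:**
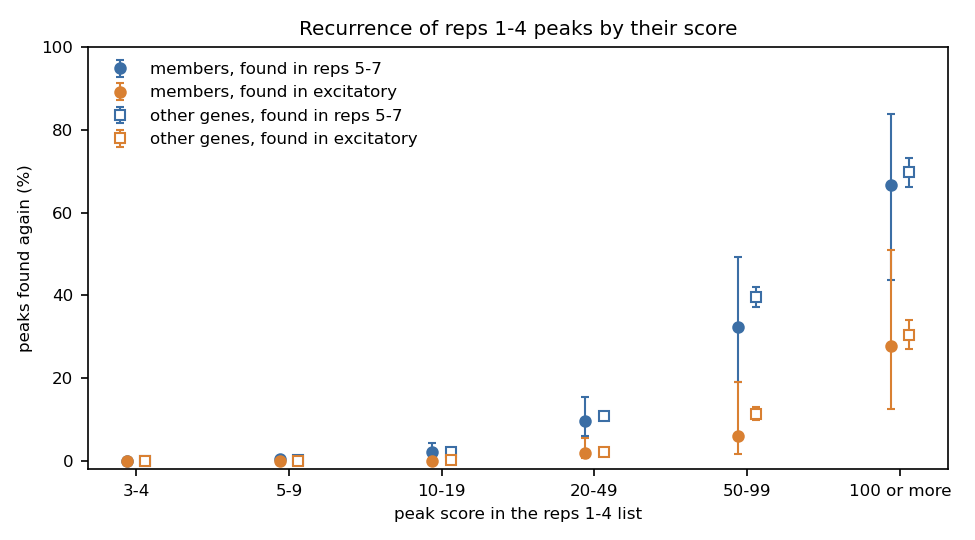
Percent of reps 1-4 peaks found in reps 5-7 (blue) and in excitatory neurons (orange) with the same small RNA (y axis), by score in reps 1-4 (x axis). Filled circles are peaks on signalling genes, open squares peaks on other genes, and bars are Wilson 95% intervals. The circles lie at 0% for scores of 3 or 4 and at 66.7% and 27.8% for 100 or more, with the open squares inside the bars of the circles in every class above 9.

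Recovery followed the score in reps 1-4, as the plot by score shows. Of the 3084 peaks on signalling genes with scores of 3 or 4, 0 were found in reps 5-7 (0 to 0.124%), against 0.0505% of such peaks on other genes. The share was 2.18% at scores of 10 to 19, 9.74% at 20 to 49, 32.4% at 50 to 99 and 66.7% (43.7 to 83.7%) at 100 or more. Other genes gave 2.10%, 10.8%, 39.6% and 69.7%. In excitatory neurons the highest class gave 5 of 18 (27.8%, 12.5 to 50.9%), against 30.4%. The strong peaks not found in either small list were miR-124-3p on Plcb1 (intron, 180), miR-29a-3p on Prkar1a (165), miR-124-3p on Adcy5 (161) and on Pde2a (124), and miR-9-5p on Akap2 (109), an anchor protein that RefSeq lists as Pakap.

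Interactions in all 3 lists numbered 6, and they came from 6 genes and 3 small RNAs. They were miR-26a-5p on Rgs4 and Prkaca, miR-9-5p on Akap11, and miR-124-3p on Gnb2, Gna12 and Pde10a. In 4 of them the reps 1-4 score was above 200, and Gna12 and Pde10a were lower. Rgs4 and Prkaca had the joint highest score, 7, on these genes in excitatory neurons. Reps 5-7 and excitatory neurons shared 6 of the 11 excitatory interactions (54.5%), against 55.5% over all excitatory peaks.

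The share of each list's peaks that fell on a gene was compared by a two-sided Fisher's exact test for each gene, adjusted by Benjamini-Hochberg over all genes with at least 10 peaks in the 2 lists together. Such a test compares pooled lists and says nothing of the spread within a condition. Of 4132 genes tested between reps 5-7 and reps 1-4, 55 (1.33%) passed an adjusted p of 0.05, and 0 of the 60 signalling genes tested did. Unadjusted, 3 of the 60 were under 0.05, against 268 of the 4132 genes tested (6.49%). Prkaca had 3 peaks against 19 (0.0831% against 0.00772% of the lists, Fisher's exact p = 0.00378, adjusted p = 0.165), Gnas 4 against 76 (exact p = 0.0290, adjusted p = 0.537) and Pde4b 0 against 334 (exact p = 0.0179, adjusted p = 0.441). The 0 on Pde4b allows a share of up to 0.0831% of reps 5-7, and Pde4b took 0.136% of reps 1-4. The median difference was -0.00691 percentage points over the 60 and -0.00569 over all genes tested, with 30% and 28.2% of the genes higher in reps 5-7.

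Between excitatory neurons and reps 1-4, 11 of 4103 genes (0.268%) passed and 0 of 60 signalling genes did. Of the 60, Akap11 alone was under 0.05 unadjusted, against 123 of the 4103 genes tested (3.00%). It had 2 peaks against 87 (0.261% against 0.0353%, Fisher's exact p = 0.0315, adjusted p = 1.00). With 766 excitatory peaks, these tests could detect little. Prkce had 0 peaks against 323 (Fisher's exact p = 0.631), so 0 peaks on a gene with fewer in reps 1-4 could not pass. The 0 of 60 therefore does not show that the shares were equal. Medians were -0.0114 percentage points over the signalling genes and -0.00772 over all. A gene without an excitatory peak has a negative difference, and only 7 of the 60 and 410 of the 4103 genes were higher in excitatory neurons. Between excitatory neurons and reps 5-7 only 32 genes had enough peaks for the test, and none was a signalling gene.

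The wider pathway was followed through 71 further symbols, older and newer names of some genes included: receptors, receptor kinases and arrestins, targets of cyclic AMP, channels and lipid kinases. Of these 60 had a reps 1-4 peak (1710 peaks), 8 a reps 5-7 peak and 2 an excitatory peak. Over all genes with a reps 1-4 peak, 12.9% had a reps 5-7 peak and 4.04% an excitatory peak. The 2 were Arrb1, which encodes beta-arrestin, with a highest score of 119 in reps 1-4 and 5 in excitatory neurons, and Kcnj3, a G beta gamma gated potassium channel subunit, with 47 and 5. In each comparison with reps 1-4, 35 of them were tested and 0 passed. The excitatory comparison has the limit of few peaks given above.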

How the data were processed

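Per the labels' protocols, chimeric reads of small RNAs and their targets were sequenced in 12 libraries. The authors pooled libraries within a group, called peaks with a minimum of 3 reads and 2 libraries (per the calling summaries) on mm10 (per the submitters' processing notes), and gave each peak 1 small RNA, 1 gene and 1 region. No aligner or peak caller is named (not given in the sources used here), and the total reads of each library are not used here. The deposited score is a whole number per peak that is not scaled to depth, and no definition of it was found in the file headers.

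Here peaks were counted per gene, region and small RNA, and no value was rescaled. Shares carry Wilson 95% intervals over peaks of pooled lists, so these cover counting error only. PCR reads without molecular identifiers are not independent molecules. A count of 0 allows a share of up to 3 counts. Genes with at least 10 peaks in a pair of lists were compared by a two-sided Fisher's exact test with Benjamini-Hochberg adjustment over all genes tested. Peaks were matched between lists by the same small RNA, strand and an overlap of 1 base. Python 3.11.15, pandas 2.3.3, numpy 2.4.6, SciPy 1.17.1, statsmodels 0.14.6 and Matplotlib 3.10.9 were used, and the code was tested on simulated data.

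The genes and lists were chosen with earlier results of these data known. Genes named were the 10 with the most peaks in reps 1-4 (every gene in a list with 30 or fewer), the 10 with the most CDS and UTR peaks, any past a test's threshold, and those with the 5 highest scores per list, the 5 sites of most small RNAs or an interaction in all 3 lists. The 10 small RNAs with the most peaks were named too. Other genes, among them Rgs2, Adcy5 and Akap2, were chosen after their values were seen. Alternatives changed the peak threshold, list size, regions, rRNA, IgG overlap, gene names, overlap and minimum peaks. Some marker genes are not reported here.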

Additional observations from a re-analysis of the deposited data

How the results depend on the processing

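Of 130 alternatives to 30 results, 98 left the value within its counting error (a count near the one reported) and 32 moved it. Some of the 98 could not move. No peak of these genes overlapped an IgG peak, so leaving such peaks out could not change the region shares. The genes left out by name had no peak in reps 5-7 or excitatory neurons, so the shares of those lists could not change either. Taking peaks at or above the median score gave a share on the signalling genes of 1.96% in reps 1-4, intron, CDS and 3' UTR shares of 53.5%, 22.4% and 22.7% there, an excitatory intron share of 0%, recurrence of 96.9% for reps 5-7 and 100% for excitatory neurons, and 34.6% for miR-124-3p. CDS and UTR peaks alone gave shares of 1.80% in reps 1-4 and 2.31% in reps 5-7, and the difference turned to 0.508 percentage points. Cutting the larger list to equal size turned that difference to 0.249. It also turned excitatory minus reps 1-4 from -0.589 to 0.261 and excitatory minus reps 5-7 from -0.198 to 0.522, both inside wide counting intervals. Reps 1-4 reduced to its 3611 highest scores had 1.38% on these genes, with 4.00% intron, 60% CDS and 32.0% 3' UTR. Reduced to 766 it had 1.17%, with 11.1%, 55.6% and 22.2%, and reps 5-7 reduced to 766 had 0.914% and 0% intron. Requiring 10 shared bases, which a peak shorter than 10 bases cannot meet, gave recurrence of 54.2% and 54.5%. Reciprocal overlap gave 50.8% for reps 5-7. At least 2 peaks per gene left 1 excitatory gene. Summed scores gave 10.3% for miR-26a-5p and 5.31% for miR-128-3p. Chosen after seeing the data, leaving out introns gave 1.45% in reps 1-4, and merged sites gave 71.6% intron, 13.6% CDS and 14.0% 3' UTR.

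No signalling gene passed the Fisher tests under any alternative run. The lowest adjusted p between reps 5-7 and reps 1-4 ranged from 0.0968 (Prkaca, at least 20 peaks per gene) to 1.00 (equal size), and for excitatory neurons from 0.966 to 1.00. Akap11 turned to -0.00155 percentage points (reps 5-7 minus reps 1-4, median score), and Pde4b to 0.00918 (excitatory minus reps 1-4, rRNA left out). Among 24 other named genes the sign changed in 19 of 190 alternatives, in 12 genes. The cause of these changes was not tested, beyond the fewer peaks each leaves. Equal size left no signalling gene to test for excitatory neurons.

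No paired analysis was possible because the authors pooled libraries before calling peaks, so no replicate could be paired or left out. The seed match alternatives were not run, since no genome of the build was used here. Reps 5-7 and excitatory neurons held 59 and 11 peaks on these genes, which sets the width of their intervals. Antibody, tag and cell type cannot be told apart between excitatory neurons and forebrain.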

Other observations

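Within annotated 3' UTRs the signalling gene peaks of reps 1-4 were spread along the whole length. Counted over the 919 that lay inside the annotated feature, with the feature cut into 4 stretches of equal length from the 5' end, 23.7%, 29.2%, 17.4% and 29.7% lay in each, and for other genes these were 29.1%, 23.7%, 22.2% and 25%. The 162 peaks of Adcy1 are part of the first set and weigh on its second and last stretches. On that 3' UTR, bases 3000 to 4000, in the second stretch, held 66 peaks, and bases from 7700 on, in the last, held 70. The shares without Adcy1 were not computed, so no difference of the signalling genes as a group is drawn from these values.

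In CDS and UTRs miR-124-3p had the most or joint most peaks in each of the 12 groups of genes, the name matches outside the families included, and in 7 it also led by summed score. In the other 5, miR-9-5p led by summed score on anchor proteins with 27.4%, and miR-26a-5p on PKA catalytic subunits with 31.5%, PKA regulatory subunits with 17.2% and RGS with 15.1%, and let-7c-5p on phospholipase C with 13.1%. On G beta genes, which hold the Gnb2 peak, miR-124-3p took 51.1% of the summed score.

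Some strong intron peaks were very short. The miR-26a-5p peak on Prkaca (score 168), the let-7f-5p peak on Plcb1 (50) and a miR-128-3p peak on Gnas (42) were each annotated as 1 base of intron.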
